A study of Mus musculus with 13 samples.

Results

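The mitochondrial ribosomal protein genes were taken as every row of the count and TPM tables whose symbol begins with Mrpl or Mrps followed by a digit. This rule, which uses names and no measured value, gave 78 of the 20270 genes in the tables, 49 named Mrpl and 29 named Mrps. Their transcripts were measured by RNA-seq in 13 lung libraries from the lower right lobe of C57BL/6J mice. The 4 control libraries came from wild-type (WT) mice that had received saline, and 5 libraries came from WT mice that had received bleomycin, an antibiotic that injures the lung and leads to fibrosis, at 1 U/kg by the oropharyngeal route. The 4 CB1R KO mice carried a global deletion of Cnr1, the gene of the cannabinoid receptor CB1R, and had received the same dose. The bleomycin lungs were taken on day 14, the WT mice were males bought at 13 weeks of age, and no CB1R KO lung without bleomycin was analysed here, so the effect of the deletion was seen only under bleomycin.

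The mitoribosome is the ribosome inside the mitochondrion. It translates the few messages of the mitochondrial genome, all of which encode core subunits of the respiratory chain and the ATP synthase, while its own proteins are encoded in the nucleus, made in the cytosol and imported. It has a large subunit, which joins the amino acids, and a small subunit, which reads the message. Part of its proteins have bacterial counterparts, and the others were gained in the mitochondrial lineage. In the lung, alveolar type II cells, which make surfactant, and activated macrophages and fibroblasts are known to draw on mitochondrial respiration and synthesis.

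The estimated counts summed to between 14615904 and 16662580 in 12 of the libraries, whereas CB1R KO 11 held 53463884, which is 3.33 times the median of the others. The type II and type I alveolar cell markers were present in every library, with summed CPM (estimated counts scaled to library size) of at least 11595 and 2413 in WT bleomycin lungs. Cnr1 was low in every group, at 0.403 to 1.05 TPM (a level scaled by transcript length and library size) in control, 0.848 to 1.85 in WT bleomycin and 0.648 to 1.5 in CB1R KO libraries, so its summed transcripts do not check the genotype. The mouse number 4 stands in the labels of 2 WT bleomycin libraries, 4 and 4-B2, which the labels list as separate samples without saying whether they came from 1 animal, so the 5 WT bleomycin libraries may stand for 4 animals. Each comparison was also made without each of them in turn.

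All 78 genes had enough counts to be tested among 15315 genes, and the lowest estimated count of any of them in any library was 4.44, for Mrpl23. Promoters are shown first for genes with the lowest p in WT bleomycin against control lungs in each direction that had an entry in the RefSeq table used here, since a set of shared promoter motifs is a known feature of nuclear genes for mitochondrial proteins. Mrpl20, Mrpl45 and Mrpl27 were higher after bleomycin, and Mrps5 and Mrpl49 were lower. The promoters of Mrpl54 and Mrps35 were not analysed here. The 250 bases before each start site (RefSeq, GRCm38.p6), written 5′ to 3′ on the strand of the gene, were read from chr4:155802628-155802877 for Mrpl20, chr11:97315466-97315715 for Mrpl45, chr11:94653541-94653790 for Mrpl27 and chr2:127587176-127587425 for Mrps5, all on the plus strand, and from chr19:6057756-6058005 on the minus strand for Mrpl49. Capitals mark matches to 6 motifs searched on both strands, none of which contains another: NRF1, ETS (CCGGAAG), YY1 (AAGATGGC), E-box (CACGTG), Sp1 (GGGCGGG) and CRE (TGACGTCA).
Mrpl20: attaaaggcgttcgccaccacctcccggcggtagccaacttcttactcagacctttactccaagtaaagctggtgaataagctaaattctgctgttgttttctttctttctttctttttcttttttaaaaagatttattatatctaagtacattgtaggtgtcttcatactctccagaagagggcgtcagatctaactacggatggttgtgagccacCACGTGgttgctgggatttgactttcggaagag
Mrpl45: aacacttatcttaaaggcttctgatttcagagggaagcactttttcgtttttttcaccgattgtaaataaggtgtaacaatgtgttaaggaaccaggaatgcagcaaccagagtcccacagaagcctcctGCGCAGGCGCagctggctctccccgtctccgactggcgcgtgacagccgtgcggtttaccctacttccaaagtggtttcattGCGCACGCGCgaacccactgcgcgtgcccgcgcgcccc
Mrpl27: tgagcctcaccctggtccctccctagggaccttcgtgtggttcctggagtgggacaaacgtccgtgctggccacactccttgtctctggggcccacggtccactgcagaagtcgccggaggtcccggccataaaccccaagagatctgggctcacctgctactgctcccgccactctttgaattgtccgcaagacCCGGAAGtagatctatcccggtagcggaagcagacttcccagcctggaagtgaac
Mrps5: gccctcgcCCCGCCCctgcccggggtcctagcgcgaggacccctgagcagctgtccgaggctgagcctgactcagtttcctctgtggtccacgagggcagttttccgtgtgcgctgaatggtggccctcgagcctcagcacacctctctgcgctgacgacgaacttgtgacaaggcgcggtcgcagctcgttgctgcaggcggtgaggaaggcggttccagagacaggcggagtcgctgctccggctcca
Mrpl49: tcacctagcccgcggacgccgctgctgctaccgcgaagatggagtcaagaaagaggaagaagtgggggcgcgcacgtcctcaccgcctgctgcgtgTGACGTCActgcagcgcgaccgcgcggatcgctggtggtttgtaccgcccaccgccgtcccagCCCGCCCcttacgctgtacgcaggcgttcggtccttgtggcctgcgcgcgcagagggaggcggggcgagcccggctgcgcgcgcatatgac

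The 2 capital runs of Mrpl45 matched NRF1, the nuclear respiratory factor, and began 120 and 38 bases before the start. The run of Mrpl27 matched the ETS motif, read by GABP among others, at 55 bases, and that of Mrpl20 was an E-box, the letters that Myc binds, at 33 bases. Mrps5 held an Sp1 match at 242 bases, and Mrpl49 an Sp1 match at 91 and a CRE, the cyclic AMP response element, at 154 bases. Over windows of 300 bases, which add 50 bases after the start, 69 of the 78 genes were represented by 75 windows. The ETS letters stood in 34.7% of these windows, against 15.0% of the windows of all genes tested and 8.86% of all windows in the table. NRF1 stood in 17.3%, 8.44% and 4.6% in the same order, and YY1 in 16% against 3.78% and 2.75%. For the E-box the shares were 9.33%, 9.13% and 7.15%, for Sp1 42.7%, 42.8% and 25.6%, and for CRE 2.67%, 2.70% and 1.79%. Of the 28 windows of genes that rose with bleomycin, described next, 53.6% held the ETS letters, against 23.4% of the other 47. The same split gave 14.3% and 19.1% for NRF1, 14.3% and 17.0% for YY1, 10.7% and 8.51% for the E-box, 42.9% and 42.6% for Sp1 and 3.57% and 2.13% for CRE, and none of these differences was tested. The shares are of windows, so genes with several windows counted more than once, among them Mrpl48 and Mrpl2. Each window of Mrpl2 held an E-box, and no window of Mrpl48 did. A match describes letters only and shows no binding.

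The members were expressed at moderate and unequal levels. Their mean TPM over the 13 libraries ran from 2.27 to 198 with a median of 30.6, against 14.5 for all genes tested. Only 3 genes were over 100 TPM, 60 lay between 10 and 100, and 15 were under 10. The 3 highest were Mrpl52, a large subunit protein of mitochondrial origin, Mrps21, the counterpart of bacterial S21, and Mrpl33, the counterpart of bacterial L33. They together held 18.04% of the TPM of the family. The 3 lowest were Mrps26 at 2.27, Mrpl32 at 3.90 and Mrpl19 at 4.42 mean TPM, the first on the small and the others on the large subunit. In CPM the spread between libraries of a group was small, with a median coefficient of variation within groups of 8.88%.

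The summed level of the family was higher in every bleomycin-treated WT lung than in every control. It was 2556 ± 87.0 TPM (SD, n = 4) in control and 3144 ± 79.2 (n = 5) in WT bleomycin lungs, or 0.301% and 0.374% of the TPM in the table. The controls lay between 2478 and 2675 and the WT bleomycin lungs between 3046 and 3247, with no overlap. In CB1R KO bleomycin lungs the sum was 3032 ± 166 (n = 4), with 2847 in mouse 8, 2958 in mouse 9, 3097 in mouse 10 and 3228 in mouse 11. All 4 exceeded every control, and mice 10 and 11 fell within the WT bleomycin range while mice 8 and 9 were below it. Summed in CPM, the members were at 1488 ± 24.1 in control, 1688 ± 63.3 in WT bleomycin and 1617 ± 94.7 in CB1R KO lungs. In these units the WT bleomycin lungs, at 1618 to 1785, were again above the controls, at 1459 to 1516. CB1R KO 8, at 1509, lay within the control range. In bulk tissue fewer cells of a type and less RNA per cell cannot be told apart.

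**Figure D1:**
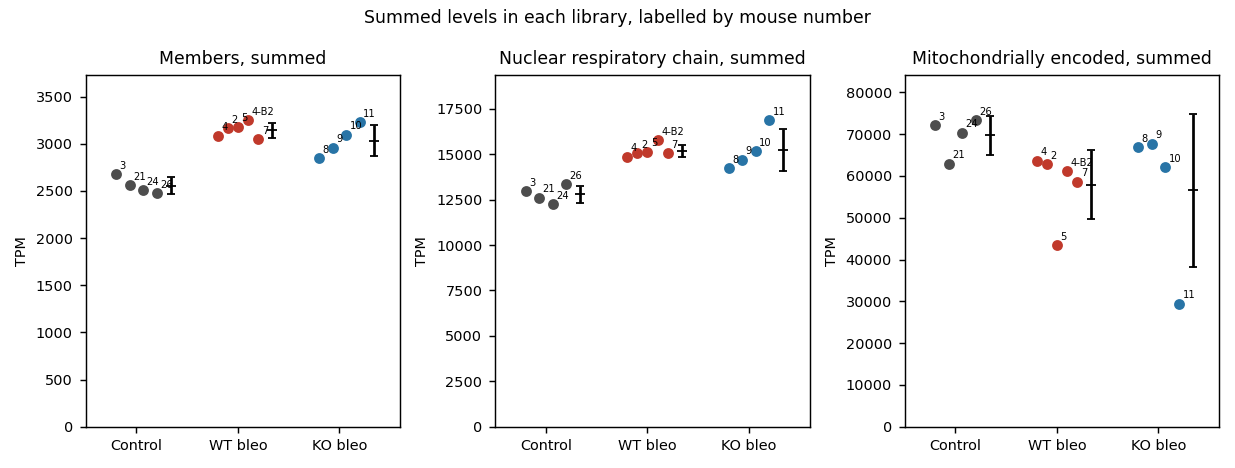
Summed TPM in each library (points, labelled by mouse number) of the 78 members, the nuclear respiratory chain genes and the 13 mitochondrially encoded genes, with the mean and SD of each group beside them. The members' sums lie between 2478 and 2675 TPM in control lungs and are all higher in bleomycin lungs; the mitochondrially encoded sum of CB1R KO 11 is the lowest of all.

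Gene by gene, 33 of the 78 members were higher and 3 were lower in WT bleomycin than in control lungs by edgeR's quasi-likelihood test (Benjamini-Hochberg adjusted p under 0.05 over all genes tested). Among all genes tested, 25% were called higher and 23.9% lower, 48.9% in all. The higher share of the members was therefore 42.3% against that background of 25%, and the share called in either direction was 46.2% against 48.9%. The median log2 fold change of the 78 was 0.23, with quartiles of 0.01 and 0.35, and it was -0.01 over all genes tested. A positive change was seen in 60 members. The range, from -0.29 to 0.90, held no member past a doubling or halving, and the 0.90 belonged to Mrpl23 (SE 0.59), whose estimated counts ran from 4.44 to 99.1 and which did not pass. Counting genes whose groups did not overlap, every WT bleomycin value was above every control value for 34 members and below for 2, Mrps35 and Mrps5, where 21.5% and 18.8% of all genes did so.

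The count of members called moved with the libraries used, as did the share of all genes called. It was 36 of 78, or 46.2%, with all libraries. Without control 24 it was 23, or 29.5% of the members, where 43.2% of all genes tested were called, and without WT bleomycin 4-B2 it was 26, or 33.3%, where 45.5% were. The labels of control 26 and of WT bleomycin 4-B2 and 7 are in mixed case. Those of all CB1R KO libraries are in lower case. With only the libraries whose labels are in lower case the count was 16, all higher, or 20.5%, where 37.2% of all genes were called. With the letter case of the labels as a batch term it was 31, or 39.7%, where 48.8% were.

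In each WT bleomycin library most members were above their control mean. The median member stood 0.13 to 0.29 above the control mean on the log2 scale in the 5 WT bleomycin libraries, and 58 to 68 of the 78 members were above their control mean. In the CB1R KO bleomycin libraries this median was 0.03 in mouse 8, 0.11 in mouse 9, 0.20 in mouse 10 and 0.23 in mouse 11. The map of all members by library shows higher values in both subunits, and several values of CB1R KO 11 depart from the other CB1R KO mice in both directions.

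**Figure D2:**
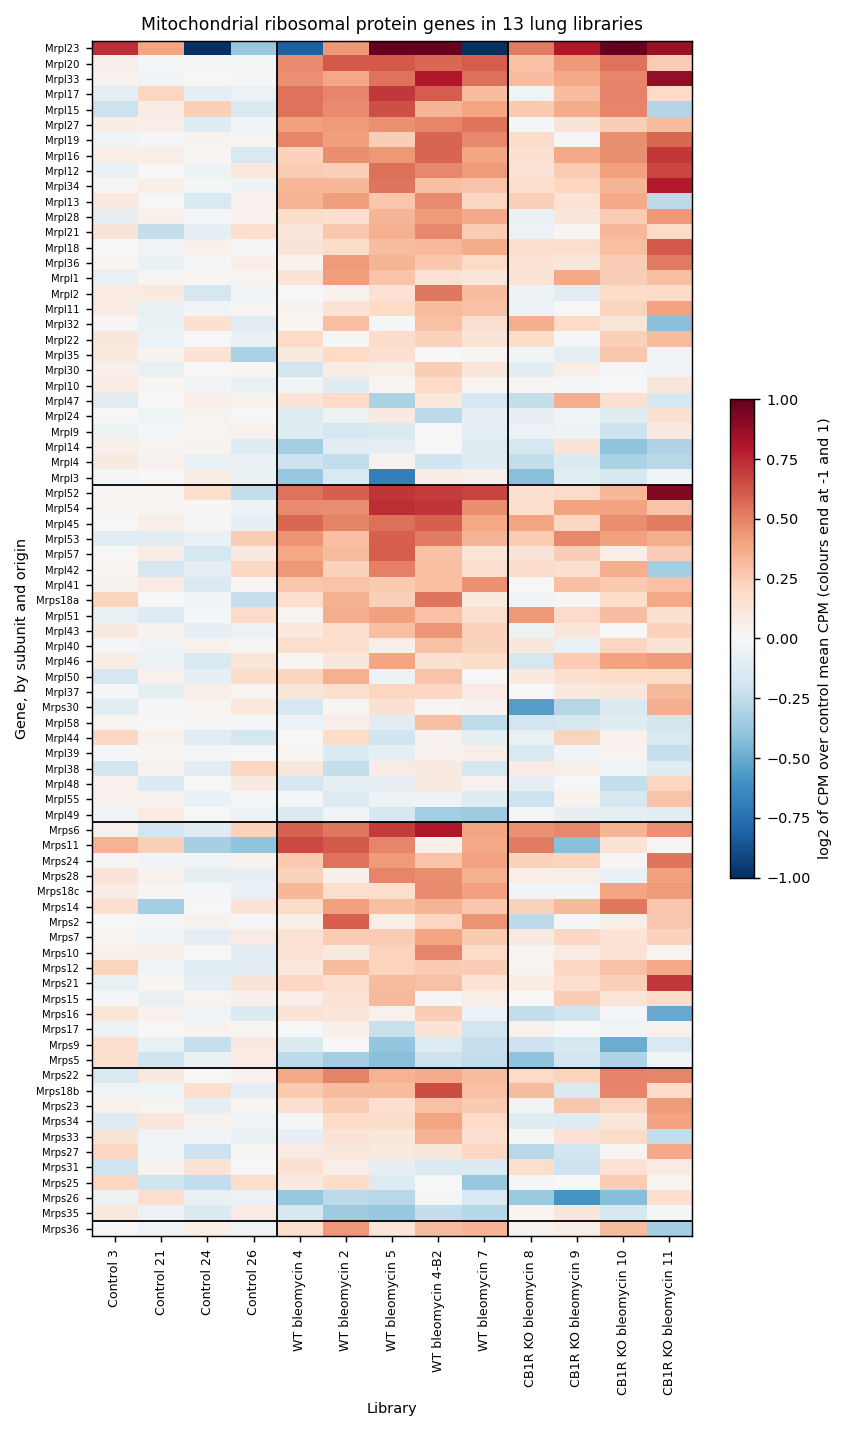
Log2 of each library's CPM over the control mean CPM for the 78 members (rows, ordered by role and by change after bleomycin) in 13 libraries (columns). Red is higher and blue is lower than the control mean, colours end at -1 and 1, and most rows are red across the 5 WT bleomycin columns; the top row, Mrpl23, varies between libraries of every group.

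Every role group held members that rose, where 25% of all genes tested were called higher and 23.9% lower. The groups followed ribosome nomenclature, which put Mrps18c with the proteins shared with bacteria. It put the related Mrps18a and Mrps18b with those of mitochondrial origin, so that label is loose for this pair. Of the 29 large subunit proteins shared with bacteria, 14 rose and 0 fell, with a median log2 change of 0.26. Of the 22 large subunit proteins of mitochondrial origin, 9 rose and 1 fell, with a median of 0.18. For the small subunit, 7 of 16 shared with bacteria rose and 1 fell (median 0.25), and 3 of 10 of mitochondrial origin rose and 1 fell (median 0.13). In the order given, the shares called higher were 48.3%, 40.9%, 43.8% and 30%, and those called lower 0%, 4.55%, 6.25% and 10%. The subunits as wholes had medians of 0.22 over 51 genes and 0.23 over 26, and differences between role groups were not tested. Besides those described below, the risers of the large subunit shared with bacteria were Mrpl12, whose bacterial counterpart forms the stalk that recruits translation factors (log2 change 0.39), and Mrpl13, Mrpl15, Mrpl16, Mrpl18, Mrpl21, Mrpl28, Mrpl34 and Mrpl36 (from 0.26 for Mrpl36 to 0.48 for Mrpl15). Those of mitochondrial origin were Mrpl41, Mrpl42, Mrpl43, Mrpl51, Mrpl53 and Mrpl57 (0.25 for Mrpl43 to 0.44 for Mrpl53). On the small subunit they were Mrps7, Mrps10, Mrps14, Mrps24 and Mrps28 (0.23 for Mrps10 to 0.39 for Mrps24) and Mrps22 (0.38) and Mrps23 (0.23). They are named here to complete the counts, after their values were seen.

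**Figure D3:**
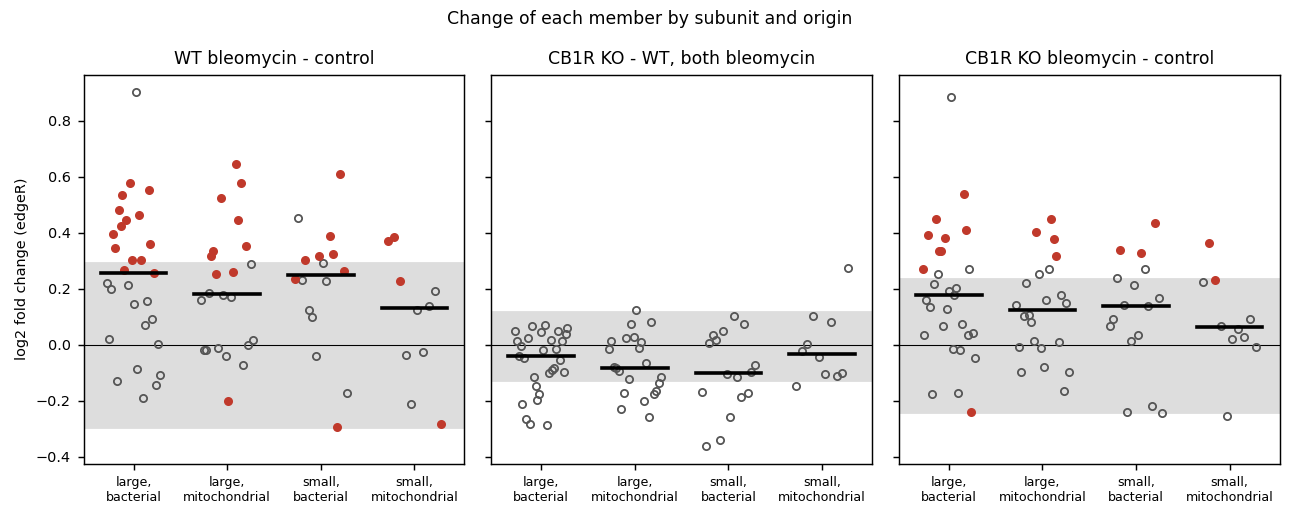
Log2 fold change of each member on the mitoribosome in 3 comparisons, by subunit and by whether the protein is shared with bacteria or of mitochondrial origin. Filled red points passed an adjusted p of 0.05 in edgeR, open points did not, black bars are medians and the grey band spans the quartiles of all genes tested; no member is filled in the comparison of CB1R KO with WT bleomycin lungs.

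Among the large subunit proteins shared with bacteria, Mrpl20 had the lowest p. It is the counterpart of bacterial L20, an early protein in large subunit assembly. Its CPM was 19.4, 18.6, 18.5 and 18.4 in control mice 3, 21, 24 and 26, and 25.9, 28.7, 28.7, 27.9 and 28.5 in WT bleomycin libraries 4, 2, 5, 4-B2 and 7. The groups did not overlap, and the log2 change was 0.58 (SE 0.073, edgeR adjusted p = 1.83e-05). In CB1R KO mice 8, 9, 10 and 11 it was 23.0, 25.3, 27.2 and 22.3, above every control, with 3 of the 4 below every WT bleomycin value.

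Mrpl27, the counterpart of bacterial L27, which lies near the catalytic centre of the ribosome, was at 20.8, 20.7, 18.2 and 19.3 CPM in the controls and 26.2, 26.6, 27.1, 27.7 and 28.6 in WT bleomycin lungs, in the same order of libraries. It rose by 0.46 on the log2 scale (SE 0.078, edgeR adjusted p = 0.000217). The CB1R KO values were 19.6, 21.6, 23.4 and 24.6, all below the lowest WT bleomycin value and partly within the control range. A pseudogene of Mrpl27 is annotated, so its counts may share reads with that copy.

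Mrpl33 was at 21.4, 20.5, 20.9 and 20.7 CPM in the controls, 28.8, 27.4, 30.4, 36.5 and 30.5 in WT bleomycin lungs and 25.9, 27.2, 29.3 and 38.4 in CB1R KO lungs. All bleomycin lungs of both genotypes were above the controls, by 0.55 (SE 0.11, edgeR adjusted p = 0.00103) in WT and 0.54 (SE 0.12, adjusted p = 0.00286) in CB1R KO lungs on the log2 scale. Mrpl17, whose bacterial counterpart sits near the exit of the peptide tunnel, was at 23.1, 28.6, 23.1 and 23.7 CPM in controls and 36.0, 34.5, 40.1, 37.5 and 30.5 in WT bleomycin lungs, a log2 change of 0.54 (SE 0.11, edgeR adjusted p = 0.00106). Its CB1R KO values of 24.0, 30.5, 34.7 and 28.3 spanned from the control range into that of WT bleomycin.

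Mrpl19, one of the 3 lowest in level, rose from 12.1 ± 0.309 CPM (n = 4) to 16.6 ± 1.39 (n = 5), a log2 change of 0.45 (edgeR adjusted p = 0.00501). Mrpl32, the other low one on this subunit, was at 7.19 ± 0.603 and 8.01 ± 0.806 CPM and did not pass (edgeR adjusted p = 0.416). Mrpl24, which lines the exit of the peptide tunnel, was the sixth in level and was at 55.0 ± 1.20 CPM in control and 51.8 ± 4.64 in WT bleomycin lungs, overlapping (edgeR adjusted p = 0.367). The family was thus not uniform even within this role group.

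Of the large subunit proteins of mitochondrial origin, Mrpl54 had CPM of 15.7, 16.0, 15.8 and 15.1 in the controls against 21.7, 21.6, 26.2, 25.7 and 21.6 in WT bleomycin lungs. No values overlapped, and the log2 change was 0.58 (SE 0.087, edgeR adjusted p = 8.16e-05). CB1R KO lungs were at 17.6, 20.7, 20.7 and 19.1, between the other groups without touching either. Mrpl45, which tethers the large subunit to the inner membrane beside the tunnel exit, was at 15.7, 16.5, 15.9 and 14.9 CPM in the controls and 23.6, 22.3, 23.1, 23.9 and 20.7 in WT bleomycin lungs. It rose by 0.52 on the log2 scale (SE 0.080, edgeR adjusted p = 9.38e-05), and its CB1R KO values of 20.8, 18.3, 21.8 and 22.5 were again all above the controls.

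Mrpl52, the most abundant member, was at 152, 150, 167 and 121 TPM in the controls, 229, 233, 237, 233 and 236 in WT bleomycin lungs and 180, 178, 196 and 257 in CB1R KO lungs. The WT bleomycin values were closely grouped and all above the controls, and CB1R KO 11 was above them. Tested on counts, its log2 change was 0.65 (SE 0.14, edgeR adjusted p = 0.00158) in WT bleomycin lungs, the largest of the called members. Mrpl49 went the other way, at 24.7, 26.7, 25.4 and 24.3 CPM in the controls and 22.9, 24.8, 22.6, 19.9 and 19.7 in WT bleomycin lungs, where mouse 2 reached into the control range (log2 change -0.20, SE 0.077, edgeR adjusted p = 0.0417). This call held in 10 of 26 alternative fits, with an adjusted p of up to 0.251.

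On the small subunit, Mrps6, the counterpart of bacterial S6, rose most among the called proteins. It was at 10.9, 9.25, 9.73 and 12.4 CPM in the controls, 15.9, 15.2, 17.1, 18.4 and 13.9 in WT bleomycin lungs and 14.5, 14.7, 13.4 and 14.5 in CB1R KO lungs. No bleomycin value of either genotype was as low as the highest control, and the log2 change in WT lungs was 0.61 (SE 0.11, edgeR adjusted p = 0.000334). Mrps21, the most abundant protein gene of the small subunit, was at 153 to 177 TPM in control and 178 to 205 in WT bleomycin lungs, and its log2 change in counts of 0.23 (SE 0.11) did not pass in edgeR (adjusted p = 0.106). In CB1R KO lungs Mrps21 was at 180, 200, 210 and 280 TPM, with mouse 11 far above the rest.

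Mrps5, the counterpart of bacterial S5 at the entry of the message channel, fell. Its CPM was 19.6, 15.3, 16.8 and 18.6 in the controls and 14.6, 13.8, 13.1, 15.2 and 14.8 in WT bleomycin lungs, with 15.3 and 15.2 as the nearest values of the groups (log2 change -0.29, SE 0.10, edgeR adjusted p = 0.0241). The call held in 19 of 26 alternative fits. Mrps26, the member with the lowest level, was at 7.26 ± 0.606 CPM in control and 6.27 ± 0.620 in WT bleomycin lungs and did not pass (edgeR adjusted p = 0.276).

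Mrps35, a small subunit protein of mitochondrial origin, fell in counts but not in TPM. Its CPM was 16.8, 15.0, 14.2 and 16.5 in the controls, 13.9, 12.2, 12, 13.2 and 12.8 in WT bleomycin lungs and 15.8, 16.9, 14.0 and 15.4 in CB1R KO lungs. The WT bleomycin values lay below all others, with a log2 change against control of -0.28 (SE 0.089, edgeR adjusted p = 0.0165). In TPM it was at 9.12, 11.3, 4.98 and 10.7 in the controls and 10.6, 9.69, 11.2, 5.43 and 11.8 in WT bleomycin lungs, so the groups overlapped throughout, and on log2(TPM + 1) the limma estimate was 0.11. In CB1R KO lungs its TPM was 6.20, 11.9, 10.4 and 15.3, which overlaps the WT bleomycin values.

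The ratio of a gene's estimated count to its TPM, scaled in each library, follows the mean length of the transcripts to which its reads were assigned. For Mrps35 this relative length, set to a mean of 1 in the controls, was 0.997, 0.703, 1.5 and 0.8 in control mice 3, 21, 24 and 26 and ran from 0.584 to 1.28 in WT bleomycin and from 0.562 to 1.45 in CB1R KO lungs. The assignment to long or short transcripts of Mrps35 thus varied more between mice of a group than between groups. It was steady for most of the family, with a median difference between WT bleomycin and control lungs of 0.78%, and 5 members were over 10% shorter after bleomycin, namely Mrps35, Mrps14, Mrpl48, Mrpl11 and Mrpl17, and 0 longer. Of these only Mrps14 had every WT bleomycin value, 0.809 to 0.889, below every control value, 0.929 to 1.09. In the whole family every WT bleomycin value was below every control value for 1 member and above for 2. The share of all genes that did so was not counted. None of these 5 was singled out before the values were seen, and among 10690 genes with at least 100 counts 245 were as much shorter and 170 as much longer.

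**Figure D4:**
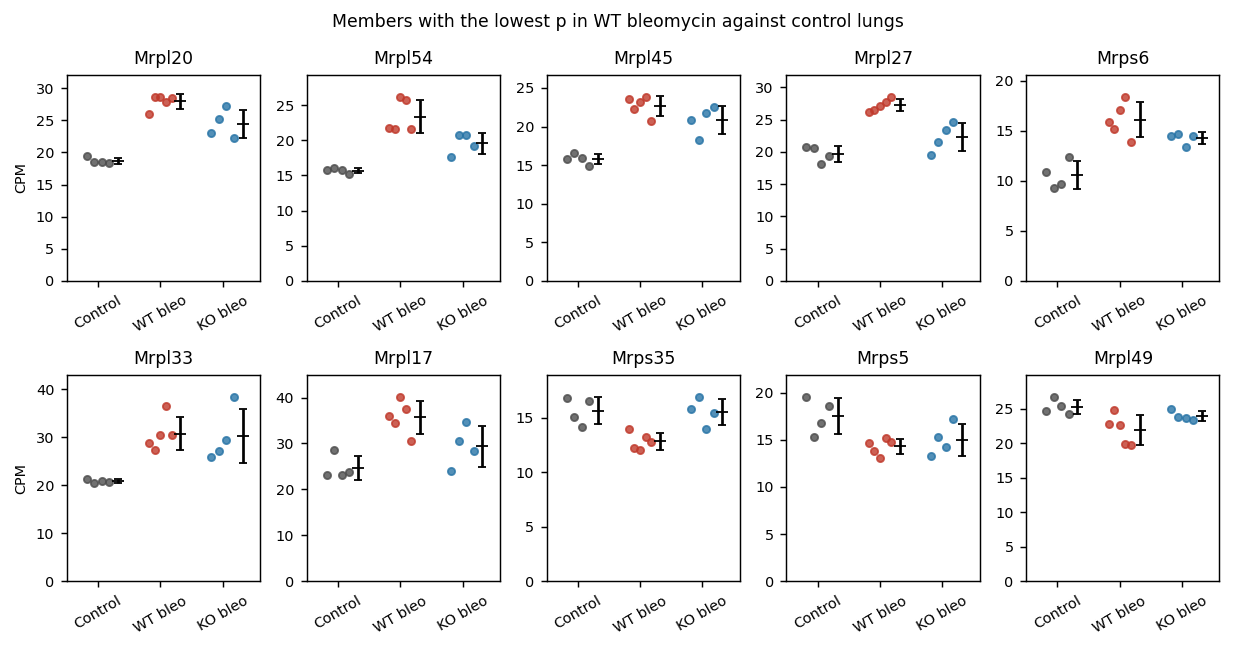
CPM of 10 members in each library (points) with group mean and SD (black), with axes starting at 0. Mrpl20, Mrpl54, Mrpl45, Mrpl27, Mrps6, Mrpl33 and Mrpl17 had the lowest p among members that rose in WT bleomycin (bleo) lungs, and Mrps35, Mrps5 and Mrpl49 are the 3 that fell. The genes were picked by the difference between control and WT bleomycin lungs. CB1R KO points that lie between these groups therefore cannot show an effect of the deletion.

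The Mrps18 genes encode related proteins at different places of the mitoribosome, of which those of Mrps18b and Mrps18c are on the small and that of Mrps18a is on the large subunit. Mrps18c, the most abundant of them at a mean of 57.4 TPM, rose from 15.4 ± 0.648 to 19.2 ± 1.80 CPM (log2 change 0.32, edgeR adjusted p = 0.0299), and Mrps18b, at 24.2 TPM, from 12.3 ± 1.02 to 15.9 ± 1.89 CPM (log2 change 0.37, adjusted p = 0.0244). Mrps18a, at 49.0 TPM, went from 20.8 ± 2.70 to 25.4 ± 3.07 CPM and just missed the threshold (log2 change 0.29, edgeR adjusted p = 0.0548). These changes are of like size, and their differences were not tested.

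Some names do not match the place of the protein. Mrps30, whose protein is on the large subunit despite its name, was at 22.6 ± 1.39 CPM in control and 22.8 ± 1.75 in WT bleomycin lungs (log2 change 0.017, edgeR adjusted p = 0.932). Mrps36, whose protein belongs to the 2-oxoglutarate dehydrogenase complex and not to the mitoribosome, was at 14.2 ± 0.468 and 17.1 ± 1.54 CPM (log2 change 0.28, adjusted p = 0.0639). Annotated pseudogenes of Mrps36, as of Mrpl23 and Mrpl48, make these counts uncertain.

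With CB1R deleted, no member passed the test. Of the 78, 0 were higher and 0 lower in CB1R KO than in WT bleomycin lungs (edgeR, adjusted over all genes tested), where 0.979% of all genes tested were called, 0.359% higher and 0.62% lower. At an unadjusted p under 0.05 there were 7 members, 6 lower and 1 higher, against 17% of all genes tested in either direction and 9.08% lower. DESeq2 on all libraries called 1 lower, Mrpl27, and DESeq2 on these groups alone called 0. The median log2 change was -0.07 (quartiles -0.15 and 0.02), with 50 of 78 members negative, and it was 0.00 over all genes tested. Leaving out single libraries, the median ran from -0.09 without CB1R KO 11 to -0.03 without CB1R KO 8, with -0.04 both without CB1R KO 9 and without WT bleomycin 4-B2, and 0 members passed in any of these fits.

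The lower members with the lowest p were Mrpl27 (log2 change -0.29, SE 0.077, edgeR adjusted p = 0.0831), Mrpl54 (-0.26, SE 0.085, adjusted p = 0.148) and Mrps16, the counterpart of bacterial S16 (-0.34, SE 0.12, adjusted p = 0.179). The first of these did not overlap between the genotypes, nor did Mrpl54, and they were the only members lower in every CB1R KO library, where 3.1% of all genes were. Mrps16 was at 8.36, 8.28, 7.81, 9.00 and 7.28 CPM in WT bleomycin and 6.41, 6.63, 7.52 and 5.37 in CB1R KO lungs, with CB1R KO 10 inside the WT range. Mrpl20, Mrpl17 and Mrps36 were the other 3 lower ones at an unadjusted p under 0.05.

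In CPM, though not in TPM as given above, Mrps35 was the 1 member higher in every CB1R KO than in every WT bleomycin library, where 2.5% of all genes were, with values of 14.0 to 16.9 CPM against 12 to 13.9 (log2 change 0.27, SE 0.088, edgeR adjusted p = 0.142). The lowest estimate of this change over the alternatives was 0.13. Next in p were Mrpl49 (log2 change 0.12, adjusted p = 0.439) and Mrpl24 (0.071, adjusted p = 0.67). Comparisons that use the same WT bleomycin libraries share their errors, so no test was made of whether members that moved with bleomycin moved back with the deletion.

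Against control lungs, 17 members were higher and 1 lower in CB1R KO bleomycin lungs, where 19% and 16.3% of all genes tested were called in these directions by edgeR, 35.4% in all. The median log2 change of the members was 0.14 (all genes -0.01), and 61 of 78 were positive. By direction, 21.8% of the members were higher and 1.28% lower, closer to the shares of all genes than in WT lungs. In either direction 23.1% of the members were called, further from the share of all genes than in WT lungs. The difference between the comparisons was not tested. The 17 included Mrpl20 (log2 change 0.38, adjusted p = 0.00153), Mrpl45 (0.40, adjusted p = 0.00192), Mrps6 (0.44, adjusted p = 0.00805) and Mrpl52 (0.45, adjusted p = 0.0273), and also Mrps21 (0.33, adjusted p = 0.0385). Mrpl27 (0.18, adjusted p = 0.104) and Mrpl17 (0.25, adjusted p = 0.0995) were not among them. The member that fell was Mrpl4, counterpart of bacterial L4, at 38.9 ± 2.12 CPM in control and 33.0 ± 1.81 in CB1R KO lungs, named here after its value was seen. Values of 14 members were above those of every control in all CB1R KO libraries and of 2, Mrpl4 and Mrpl58, below, where 17.7% and 15.8% of all genes did so.

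The rest of the mitochondrial translation system was counted by the same test in WT bleomycin against control lungs. Among all genes tested 25% were called higher and 23.9% lower in this comparison. Of 5 mitoribosome proteins under other names, 2 rose and 0 fell (median log2 change 0.12), among them Chchd1, a small subunit protein, from 14.5 ± 1.32 to 19.4 ± 1.77 CPM (log2 change 0.41, edgeR adjusted p = 0.00334). Of 10 translation factors 3 rose and 0 fell (median 0.06), led by Tsfm, the exchange factor for the mitochondrial elongation factor Tu (0.34, adjusted p = 0.0117). The 17 aminoacyl-tRNA synthetases, which charge the mitochondrial tRNAs, had 2 higher and 2 lower (median -0.03), with Sars2 at 0.38 (adjusted p = 0.0283) and Hars2 at -0.26 (adjusted p = 0.00753).

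Of 25 factors of mitoribosome assembly and rRNA maturation 1 rose and 3 fell (median -0.09). Trub2, a pseudouridine synthase, was at a log2 change of 0.42 (edgeR adjusted p = 0.0334), a call that held in 17 of 26 alternative fits with an adjusted p of up to 0.241, and Dhx30, an RNA helicase, at -0.26 (adjusted p = 0.0012). The 13 genes of mitochondrial transcription and mRNA handling had 2 higher and 3 lower (median -0.12), with Slirp, which stabilises mitochondrial messages, at 0.38 (adjusted p = 0.0053) and Polg, the mitochondrial DNA polymerase, at -0.59 (adjusted p = 0.000393). In CB1R KO against WT bleomycin lungs 0 genes of these 5 lists passed in edgeR, where 0.979% of all genes tested did. In the order given, 1, 1, 2, 0 and 2 had an unadjusted p under 0.05, where 17% of all genes tested did.

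Among 9 regulators of mitochondrial biogenesis 2 rose and 4 fell with bleomycin, or 22.2% and 44.4%, where 25% and 23.9% of all genes tested did. Myc, a transcription factor with ribosomal genes among its known targets, rose from 9.81 ± 1.49 to 30.9 ± 5.56 CPM (log2 change 1.66, edgeR adjusted p = 6.82e-07) and was at 16.1 ± 1.43 in CB1R KO lungs, below WT bleomycin by the same test (log2 change -0.95, adjusted p = 0.0177). Calls between the genotypes depended on the libraries used. They covered 150 of all genes tested with all libraries, 1 without CB1R KO 9 and 3 without CB1R KO 11. Whether the Myc call held in those fits is not reported here. Nrf1, which encodes the factor whose motif is shown above, fell from 39.7 ± 1.51 to 33.0 ± 1.33 CPM (log2 change -0.27, adjusted p = 0.00274). Whether these changes bear on the members was not tested.

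**Figure D5:**
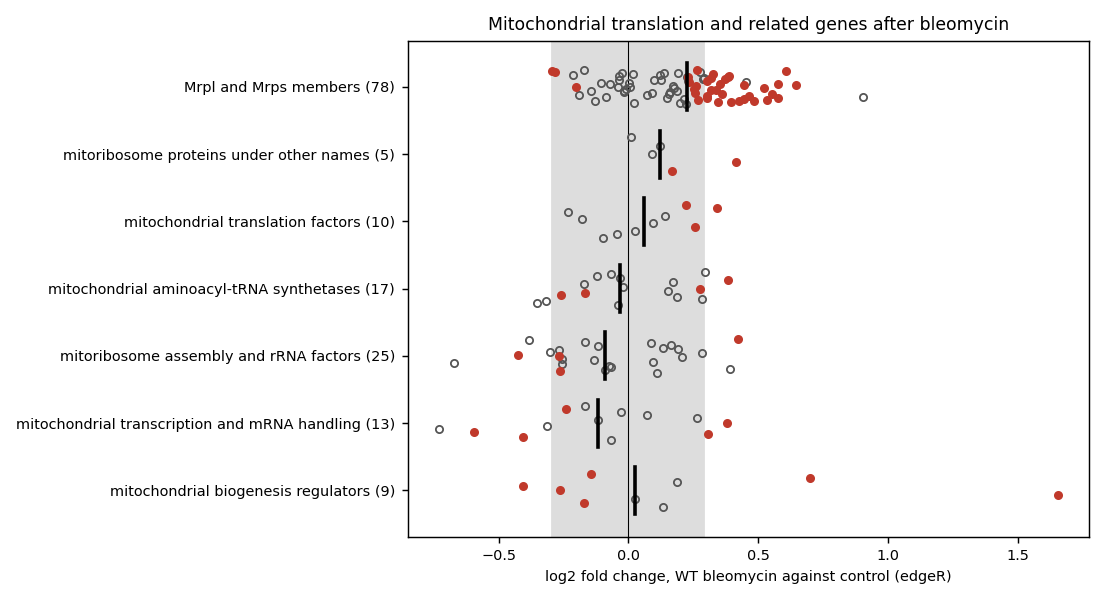
Log2 fold change, between WT lungs given bleomycin and control lungs, of the members and of 6 lists of genes of mitochondrial translation and biogenesis, with the number tested in brackets. Filled red points passed an adjusted p of 0.05 in edgeR, black bars are medians and the grey band spans the quartiles of all genes tested; the members have the highest median, 0.23.

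Other families are set beside the members here by their counts. After bleomycin in WT lungs 25% of all genes tested were called higher and 23.9% lower. Of the nuclear genes of the respiratory chain, 39 of 85 rose and 8 fell (median log2 change 0.21, and 0.20 in CB1R KO bleomycin against control lungs). Of 84 cytosolic ribosomal protein genes 29 rose and 2 fell (median 0.13). In CB1R KO against WT bleomycin lungs the 3 families differed in their medians, at -0.07 for the members, -0.02 for the respiratory chain and -0.17 for the cytosolic ribosomal proteins, with 50 of 78, 53 of 85 and 81 of 84 genes negative and 0 called in each. At an unadjusted p under 0.05 in edgeR there were 7, 11 and 40 of them, where 17% of all genes tested had such a p. The 13 genes of the mitochondrial genome, the messages that the mitoribosome reads, were all negative after bleomycin (median -0.31, 1 called lower). Their summed level was 69659 ± 4676 TPM in control, 57936 ± 8317 in WT bleomycin and 56520 ± 18216 in CB1R KO lungs, with overlap between groups and the lowest values in CB1R KO 11 (29443) and WT bleomycin 5 (43451). Differences between families were not tested.

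The members were also split by transcript length. The longest annotated transcripts of the members (GENCODE, GRCm38) had a median of 1327.5 bases, against 3139 over all genes tested with a length. Of the 39 members up to that median, 23 rose and 0 fell (median log2 change 0.32), and of the 39 longer ones 10 rose and 3 fell (median 0.07). Among all 1589 genes tested with transcripts as short, 32.5% rose with a median of 0.13, and among 13453 longer genes 24.2% rose with a median of -0.02. Across the 78 members, length and log2 change had a Spearman correlation of -0.46, a description over genes that share libraries and depth, and it was -0.13 over all genes tested. The part of length in the rise was not tested.

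Cell type markers moved with bleomycin as well, where 25% of all genes tested were called higher and 23.9% lower in WT lungs. All 6 markers of dividing cells rose, and their summed level was 36.5 to 51.6 CPM in control, 207 to 313 in WT bleomycin and 127 to 353 in CB1R KO lungs. Of the 8 markers of monocyte-derived macrophages 6 rose (summed 235 to 349, 2209 to 2782 and 1536 to 2281 CPM), and of the 6 of fibroblasts 5 rose (1650 to 2010, 6427 to 9476 and 4619 to 7393 CPM). Of the 6 type II cell markers 5 fell (18624 to 22090, 11595 to 13246 and 13475 to 21264 CPM), all 6 endothelial markers fell, and all 8 of cardiac muscle fell (715 to 1819, 118 to 478 and 486 to 866 CPM). In CB1R KO against WT bleomycin lungs 3 of the 6 type II markers, 2 of the 7 of T and NK cells and 1 of the 6 endothelial markers were higher, and 0 of the macrophage, fibroblast and dividing cell markers passed. Among all genes tested 0.359% were called higher and 0.62% lower between the genotypes. Without CB1R KO 9 only 1 gene of all tested was called, so these marker calls cannot all hold in that fit. No summed marker level named here was at 0 in any library, and the part of these shifts in the changes of the members was not tested.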

How the data were processed

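Lung poly(A) RNA was prepared with the NEBNext Ultra II kit and sequenced as paired ends of 150 bases. The authors quantified reads with Kallisto (version not given in the sources used here) against the Ensembl release 105 mouse transcripts (GRCm39 in the submitters' processing notes), and deposited estimated counts and TPM, each summed over the protein-coding transcripts of a gene. Kallisto shares reads among transcripts, so genes with near-identical copies are uncertain. Of the deposited columns, 1 matched no sample and was not used.

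Estimated counts were rounded and tested with edgeR 4.0.16 (TMM, filterByExpr, quasi-likelihood) in R 4.3.3, in one fit over all 13 libraries in 3 groups, with Benjamini-Hochberg adjustment over 15315 genes and a threshold of 0.05. CPM are TMM-scaled. The study's tool, DESeq2 (1.42.0), and limma (3.58.1) on log2(TPM + 1) were among 26 alternatives. The p-values measure the spread between the labelled libraries.

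The members and all lists were chosen with earlier results of these data known. Named members are the 7 with the lowest p in each direction after bleomycin among those called, the 3 with the lowest p in each direction for the CB1R deletion, the 3 highest and the 3 lowest in TPM, the Mrps18 genes, those on another subunit than named, and the called gene with the lowest p in each direction of each list. The choice of printed promoters was widened after the results were known.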

Additional observations from a re-analysis of the deposited data

Results flagged for a closer look

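In 102 groups of libraries checked, 7 held a library that stood apart from the rest of its group by Dixon's criterion, which chance alone meets in about 1 of 20 groups. Mrpl20 was at 19.4 CPM in control 3, where the other controls lay between 18.4 and 18.6, and at 25.9 in WT bleomycin 4, where the others lay between 27.9 and 28.7. Mrpl17 was at 28.6 CPM and Mrps26 at 8.17 in control 21, above the other controls at 23.1 to 23.7 and 6.92 to 7.01. Mrps18b reached 19.2 CPM in WT bleomycin 4-B2, against 14.7 to 15.3 in the others. Mrps6 was at 13.4 CPM in CB1R KO 10, against 14.5 to 14.7, and Chchd1 at 15.4 in CB1R KO 8, against 19.0 to 19.4 in the other CB1R KO lungs.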

How the results depend on the processing

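No paired analysis was possible because the groups share no replicate numbers across conditions in the labels. Over 26 alternatives the median log2 change of the members kept its sign in all 3 comparisons. Leaving out single libraries, it ran from 0.21 to 0.25 for WT bleomycin against control, from -0.09 to -0.03 for CB1R KO against WT bleomycin and from 0.12 to 0.17 for CB1R KO bleomycin against control, and the members called ran from 23 to 41, 0 to 0 and 12 to 25, where 43.2% to 50.2%, 0.00648% to 4.24% and 27.7% to 35.7% of all genes tested were called. Of the 33 that rose in WT bleomycin lungs 13 passed in all alternatives and 33 kept their sign, and of the 3 that fell 0 passed in all. Of the pathway genes named, Chchd1, Hars2, Dhx30, Slirp and Myc passed after bleomycin in all 26, Tsfm in 25, Polg and Nrf1 in 23, Sars2 in 21 and Trub2 in 17. Members called after bleomycin in WT lungs were 16 with only lower-case labels. Those called between the genotypes were 1 with DESeq2 on all libraries, and those for CB1R KO bleomycin against control were 28 with limma on log2(TPM + 1) and 28 on log2(TPM + 0.1), where 4.1%, 35% and 35.1% of all genes were called. Mrps35 turned positive against control in WT bleomycin lungs under limma at both pseudocounts (0.11 and 0.13) and without a filter (0.11), and the cause was not tested. Its near-zero change in CB1R KO lungs turned to 0.25 and 0.27 under limma at these pseudocounts, 0.25 without a filter, 0.0069 with label case as a batch term, 0.022 with lower-case labels only, 0.012 with CB1R KO 11 thinned, and ran from -0.053 to 0.042 when single libraries were left out. That of Mrps30 in WT bleomycin lungs ran from -0.018 to 0.058 over the same.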
